A study of Mus musculus with 7 samples.

Results

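The 10 genes described here encode neuropeptides of the forebrain and hypothalamus outside the interneuron peptides usually followed in Lhx6 mutants: Gal, Uts2b, Grp, Cartpt, Nts, Trh, Avp, Oxt, Pmch and Hcrt. They were matched by symbol among the 47729 genes of the count table, and all 10 had a row. The set was selected on differences between the genotypes that were already known from these libraries, so the genotype values of these 10 genes are given as a description and carry no p-value. Where one of them is said to pass or miss the threshold of the fit across all genes, that describes the same values and is no independent test. Genes outside the set, above all the receptors, were tested, although their lists were also drawn up with earlier results of these data known.

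RNA was sequenced from whole forebrain of mice at postnatal day 15 (P15), of the F1(C57BL/6 X 129Sv) strain. The 4 control libraries came from Lhx6+/- mice and the 3 mutant libraries from Lhx6-/- mice, and each was a pool of 2 animals. Both genotypes carry a null allele of Lhx6, a LIM homeodomain gene of interneurons born in the medial ganglionic eminence, and no wild-type animals were included. The allele is constitutive, so any cell that uses Lhx6 lacked it in the mutants, including cells outside the cortex. Values are normalized counts, that is, expected counts scaled to a common library size, and are listed for controls 2, 3, 10 and 11 and then for mutants 5, 12 and 13, numbered as in the table.

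Neuropeptides are cut from larger precursors, packed into dense-core vesicles and released mostly during sustained firing. They act through G protein-coupled receptors, often on cells that are not direct synaptic partners. Their genes are known for transcription that follows electrical activity and cyclic AMP. Galanin, thyrotropin-releasing hormone (Trh), CART (Cartpt) and neurotensin (Nts) are made in scattered neurons of cortex, amygdala, hypothalamus and brainstem. Orexin (Hcrt), melanin-concentrating hormone (Pmch), vasopressin (Avp) and oxytocin (Oxt) are made almost solely in hypothalamic neurons within the brain.

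Promoter sequence is shown for Gal and Uts2b, the pair with the largest excess in mutants, and for Cartpt, which was lower in every mutant library and holds a complete cyclic AMP response element (CRE). The sequences are those of RefSeq on build GRCm38.p6, 5′ to 3′ on the strand of the gene. They run from 250 bases before to 50 bases after the annotated start. Of the 10 genes 9 had an entry, and Grp had none, so its promoter was not read. Capitals mark every match on either strand to the CRE core TGACG, the full CRE TGACGTCA, the AP-1 like TGANTCA, the TATA box TATAAA and the homeodomain core TAATTA. The full CRE holds the core on both strands. The Gal window is chr19:3414495-3414794 on the minus strand, the Uts2b window chr16:27370190-27370489 on the minus strand and the Cartpt window chr13:99900634-99900933 on the minus strand.
Gal: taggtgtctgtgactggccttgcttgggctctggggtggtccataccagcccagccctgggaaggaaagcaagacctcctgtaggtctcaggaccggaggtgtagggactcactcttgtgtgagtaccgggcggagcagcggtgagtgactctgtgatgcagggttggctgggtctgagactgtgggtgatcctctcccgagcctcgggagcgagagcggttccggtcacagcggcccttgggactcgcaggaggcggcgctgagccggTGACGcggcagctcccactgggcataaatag
Uts2b: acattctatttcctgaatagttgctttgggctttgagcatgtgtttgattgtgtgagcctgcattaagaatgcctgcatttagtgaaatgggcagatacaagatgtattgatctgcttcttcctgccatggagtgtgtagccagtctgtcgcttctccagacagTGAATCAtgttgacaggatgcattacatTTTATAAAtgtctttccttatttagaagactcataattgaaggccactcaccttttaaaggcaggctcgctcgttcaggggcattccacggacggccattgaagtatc
Cartpt: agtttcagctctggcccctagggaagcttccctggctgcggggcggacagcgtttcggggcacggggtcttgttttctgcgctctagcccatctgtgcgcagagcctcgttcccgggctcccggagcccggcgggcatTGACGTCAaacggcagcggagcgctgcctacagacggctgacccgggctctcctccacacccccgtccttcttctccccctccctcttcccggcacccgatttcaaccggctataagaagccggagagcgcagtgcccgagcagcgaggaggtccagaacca

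The full CRE of Cartpt begins 112 bases before the start, and 1.79% of the 32851 promoter windows in the table hold one. A CRE core, present in 20.8% of windows, begins 19 bases after the RefSeq start of Gal. The annotation used for counting places the Gal start 72 bases away from the RefSeq one, and the starts agree for Uts2b and Cartpt. Uts2b holds an AP-1 like match that begins 86 bases before the start, a motif of 7.81% of windows, and overlapping TATA boxes on opposite strands, at 58 and 56 bases before it, a motif of 13.6% of windows. Among the other genes of the set, Trh holds a CRE core and Nts both a CRE core and an AP-1 like match. Avp holds an AP-1 like match, Pmch an AP-1 like match and a TATA box, and Hcrt a TATA box. The homeodomain core, found in 5.29% of windows, occurred in none of the 9 windows. These are matches of letters, and binding at them was not measured here.

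The libraries summed to between 32556304 and 38069151 expected counts, so 3 counts, the limit that a count of 0 allows, correspond to at most 0.0921 CPM (counting error only). Lhx6 stood at 615, 522, 476 and 522 normalized counts in controls and at 70.9, 76.6 and 70.1 in mutants, so the genotype labels hold. Library numbers fall into a low run, with controls 2 and 3 and mutant 5, and a high run, with controls 10 and 11 and mutants 12 and 13. Libraries of a genotype resembled each other more within the high run than across runs, and what the numbers stand for is not given. Results are therefore also given within runs where they differ. In bulk forebrain, fewer cells of a type and less RNA per cell cannot be told apart.

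Gal, which encodes the mostly inhibitory peptide galanin, rose 8.25-fold in the mutants. The controls held 8.77, 8.03, 5.76 and 6.10 normalized counts, and the mutants 61.3, 61.1 and 54.9. The genotypes were far apart and the spread within each was small, with 7.17 ± 1.47 (SD, n = 4) in controls and 59.1 ± 3.62 (SD, n = 3) in mutants. The fitted log2 fold change was 3.03 ± 0.25 (SE). Within the low run the log2 ratio was 2.87 and within the high run 3.29. No control library reached 10 counts of Gal, so the gene entered the fit through the mutants alone.

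Uts2b, which encodes the urotensin II-related peptide, was close to absent in controls and present in every mutant library. It was listed at 0 in control libraries 2, 3 and 11 and at 3.84 normalized counts in control library 10, against 23.0, 35.2 and 65.3 in the mutants. The mutants varied among themselves, from 23.0 to 65.3, and the lowest mutant was well above the highest control. In unscaled counts, the controls held 4 in all and the mutants 127, a ratio corrected for library size of 40.7 with an exact 95% interval of 15.5 to 152 that covers counting error only. The size of the excess thus rests on 4 control counts from 1 library, and the fitted log2 fold change, 5.19 ± 0.86 (SE), is less certain than its sign. Without that library the controls are all at 0 and the fitted value, 8.36, depends on the prior count of the fit. Uts2b also passed the filter through the mutants alone, and with a filter on 2 libraries it no longer passed the threshold without mutant library 13 (log2 fold change 4.69). Its paralog Uts2, which encodes urotensin II itself, stayed at or under 3.01 normalized counts in every library, and the receptor gene they share, Uts2r, between 0 and 5.68.

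Grp encodes gastrin-releasing peptide, an excitatory bombesin-like peptide of cortical, hippocampal and amygdalar neurons. Grp fell in the mutants. It stood at 485, 519, 345 and 263 normalized counts in controls and at 148, 78.7 and 101 in mutants. Every mutant lay below every control, although controls of the low run exceeded those of the high run. The ratio of means was 0.272 and the log2 fold change -1.88 ± 0.30 (SE), and the log2 ratio was -1.76 within each run. Without mutant library 13 Grp no longer passed the threshold of the fit across all genes (log2 fold change -1.82). Nmb, the related bombesin-like peptide gene, ranged from 36.6 to 91.4 in controls and from 40.7 to 70.9 in mutants. Its log2 fold change was -0.23 ± 0.33 (SE), with an adjusted p of 0.798.

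Cartpt and Nts, both abundant in the set, showed smaller differences. Cartpt, whose product CART is released by cortical, accumbal and hypothalamic neurons, held 268, 362, 230 and 238 normalized counts in controls. The mutants held 214, 121 and 170 of it, all under the lowest control. The log2 fold change was -0.70 ± 0.23 (SE), with log2 ratios of -0.56 and -0.68 within the low and high runs. It did not pass the threshold of the main fit, and it passed in DESeq2 and in edgeR with the run as a covariate. Nts, which encodes neurotensin, held 138, 196, 116 and 88.4 in the controls and 156, 231 and 223 in the mutants. The genotypes of Nts overlapped, and the runs differed: the log2 ratio was -0.10 in the low run and 1.15 in the high run. Among libraries 10 to 13 alone Nts passed the threshold, and in the fit of all libraries, with a log2 fold change of 0.59 ± 0.27 (SE), it did not.

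Trh encodes the precursor of thyrotropin-releasing hormone, a releasing hormone of the hypothalamus that is also a transmitter elsewhere. It held 86.6, 55.2, 56.6 and 25.4 normalized counts in controls and 171, 90.0 and 64.4 in mutants. The mutant range overlapped the control range, since control library 2 exceeded mutant library 13. The log2 fold change was 0.96 ± 0.43 (SE), with log2 ratios of 1.27 within the low run and 0.91 within the high run. Trh did not pass the threshold in the main fit, and with the run as a covariate it lay barely inside it.

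The 4 classical hypothalamic peptides were near the limit of detection. Avp, the gene of vasopressin, held 8.77, 3.01, 3.84 and 3.05 normalized counts in controls and 10.5, 10.4 and 9.47 in mutants. The genotypes did not overlap, by a margin of less than 1 count, and the log2 fold change was 1.11 ± 0.49 (SE), not past the threshold. Oxt, the gene of oxytocin, held between 0.96 and 3.29 in controls and between 2.87 and 4.14 in mutants. Pmch ranged from 0 to 6.10 in controls and from 0 to 3.11 in mutants, and Hcrt from 0 to 2.88 and from 0.95 to 2.07. Oxt, Pmch and Hcrt reached 10 counts in no library and did not enter the main fit, and with no filter they did not pass the threshold. Their ratios of mutant to control counts, corrected for library size, had wide exact 95% intervals that cover counting error only: 0.591 to 4.28 for Oxt, 0.251 to 2.69 for Pmch and 0.239 to 6.89 for Hcrt.

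Counts of Avp and Oxt are less certain for a further reason, which the sequence itself shows. The transcripts of these neighbouring genes share an identical stretch of 127 bases that encodes part of neurophysin, the carrier protein cut from both precursors, and reads of 36 bases that fall inside it match both. It lies mostly in exon 2 of each gene, at chr2:130581133-130581257 on the minus strand for Avp and chr2:130576591-130576715 on the plus strand for Oxt, on build GRCm38, and the remaining 2 bases are the end of exon 1. The stretch, from the transcripts of the reference annotation, is shown because it sets what these counts can tell apart, and no letter is capitalized.
Avp and Oxt: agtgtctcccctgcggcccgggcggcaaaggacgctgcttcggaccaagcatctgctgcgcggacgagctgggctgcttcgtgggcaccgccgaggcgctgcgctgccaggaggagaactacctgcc
Of the possible 36-base words, 17.0% of those of Avp and 19.5% of those of Oxt occur in the other gene, and their deposited counts were accordingly fractional in some libraries, such as 2.6 for Avp and 1.5 for Oxt in control library 3. Pmch overlaps Parpbp on the opposite strand, and 51.4% of its words occur there, so its few reads may belong to either gene. The remaining 7 genes shared no such word with another gene.

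**Figure D1:**
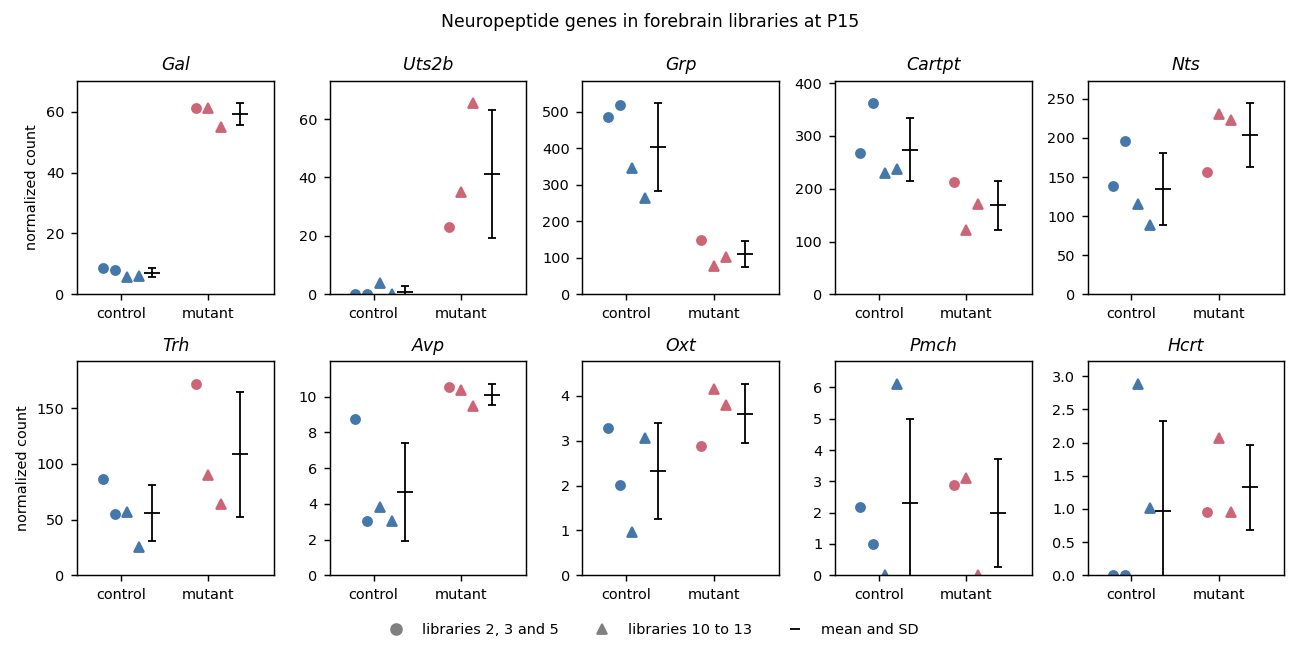
Normalized counts (y axis, each panel from 0) of the 10 neuropeptide genes in 4 control and 3 mutant forebrain libraries (x axis), 1 point per library, with circles for libraries 2, 3 and 5 and triangles for libraries 10 to 13, and with the mean and SD in black. Gal and Uts2b stand apart upwards in the mutants and Grp downwards, while Pmch, Hcrt and Oxt stay under 10 in every library.

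In the fit across all genes, 7 of the 10 genes passed the filter on low counts, and 3 of those 7, Gal, Uts2b and Avp, passed it through the mutant libraries alone. Past an adjusted p of 0.05 were 3 genes, Gal and Uts2b higher in mutants and Grp lower. Across all 19684 tested genes, 4.85% passed the threshold, 2.97% as higher in mutants and 1.87% as lower. The genotypes did not overlap for 5 of the 7 genes, namely Gal, Uts2b, Grp, Cartpt and Avp, and for 19.7% of all tested genes. Since the set was chosen for such differences, nothing is read from these counts. The same 3 genes passed when no filter was applied and all 10 genes entered the fit.

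Levels scaled for exon length and library size (RPKM) allow the genes to be ranked against each other. In controls Grp was the most abundant peptide of the set at 10.7 ± 3.17 RPKM (SD, n = 4), followed by Cartpt at 8.81 ± 1.94, which it overlapped, and by Nts at 3.21 ± 1.09 and Trh at 1.14 ± 0.51, each below the whole range of the gene before it. Gal at 0.282 ± 0.058 RPKM lay below Trh and overlapped Avp at 0.227 ± 0.134, and from Gal down to Uts2b, the lowest at 0.032 ± 0.064, every gene overlapped the next. In mutants the order was changed: Cartpt led at 5.41 ± 1.49 RPKM (SD, n = 3), ahead of Nts at 4.85 ± 0.98, Grp at 2.90 ± 0.94, Gal at 2.33 ± 0.14, Trh at 2.203 ± 1.13 and Uts2b at 1.38 ± 0.73. Each of these overlapped its neighbour in the order, and Avp at 0.492 ± 0.028 lay below all of them. Gal thus moved from below Trh to a level beside Trh and Grp, and Uts2b from the lowest rank to the sixth.

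Because several of the peptides belong to the hypothalamus, hypothalamic marker genes that are not in the set were read beside them. Whether their levels give the amount of hypothalamus in the libraries was not tested. Of 12 hypothalamic markers, 8 stayed under 10 counts in every library, among them Otp, Rax and Nr5a1, transcription factors of hypothalamic nuclei, and Nkx2-4 was listed at 0 in all. Their summed level was 133 to 304 normalized counts in controls and 128 to 200 in mutants, most of it from Gpr101, Irs4 and Ghsr. For comparison, 6 telencephalic markers summed to between 77177 and 88467 in controls and between 88152 and 106368 in mutants. Most of that sum came from Slc17a7, with a mean of 67951 in controls and 80946 in mutants. Telencephalic markers were thus the most abundant of these lists, with thalamic markers also present (7 markers summing to 2071 to 2778 over all libraries). The sums add different genes and do not give shares of regions. Of the 12 hypothalamic genes 8 were under 10 counts throughout, whereas Gpr101, Irs4 and Ghsr were measurable in both genotypes. None of the 3 hypothalamic markers tested passed the threshold in the edgeR fit or under any alternative run; 1 of them, Irs4, had an unadjusted p under 0.05 (log2 fold change -0.97 ± 0.36, adjusted p = 0.194). The median level of the 12 markers was 0.0155 RPKM in controls and 0.0163 in mutants, below that of each of the 4 classical hypothalamic peptides.

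Galanin is also a peptide of brainstem noradrenergic and serotonergic neurons, and 8 markers of midbrain and hindbrain were read beside it. They summed to 121 to 150 normalized counts in controls and 166 to 199 in mutants. Tph2, the enzyme of serotonin synthesis, held 62.5, 84.4, 61.4 and 62.0 in controls and 85.3, 139 and 124 in mutants (log2 fold change 0.78 ± 0.22, adjusted p = 0.0837). Slc6a4, the serotonin transporter, stayed between 1.10 and 6.71 in all libraries, and Fev at 0 in controls and at or under 2.07 in mutants. Dbh, the noradrenergic enzyme, held 40.3 to 51.5 in controls and 44.5 to 53.0 in mutants. Of the 3 tested markers 0 passed the threshold, and 1 had an unadjusted p under 0.05. The 8 pituitary markers summed to 39.5 to 69.1 in controls and 75.7 to 84.3 in mutants, mainly Tshb and an uneven Gh, and 0 of the 2 tested passed, with 0 at an unadjusted p under 0.05. The part of these marker levels in the values of Gal was not tested.

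**Figure D2:**
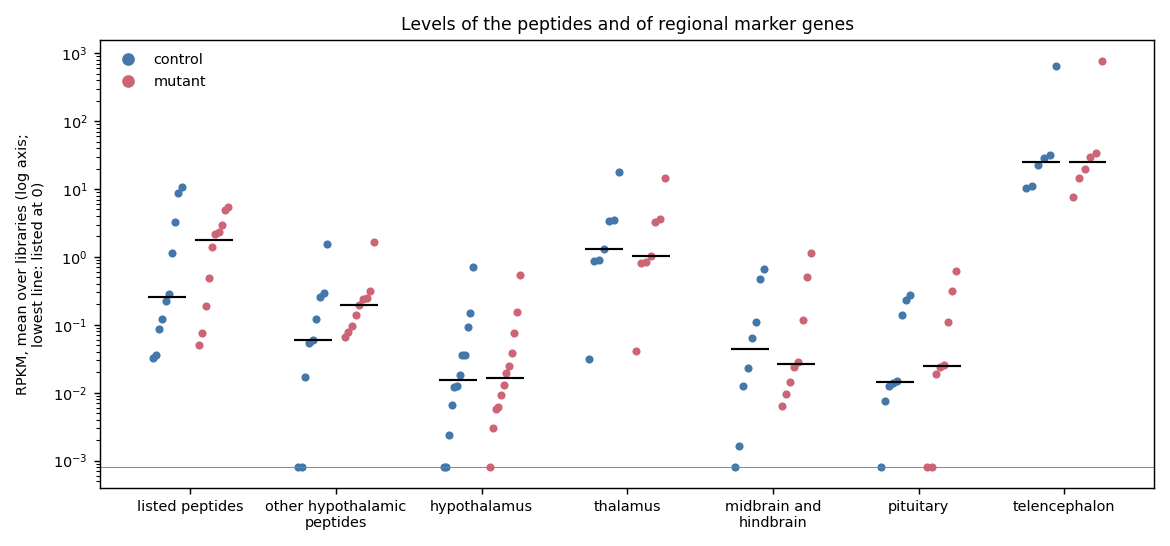
Mean RPKM over libraries (y axis, log scale) of the genes of the neuropeptide set, of other hypothalamic peptides and of the regional marker lists (x axis), in blue for controls and red for mutants, with a black line at each list's median and genes listed at 0 drawn on the grey line. Hypothalamic, midbrain and hindbrain, and pituitary markers lie mostly below 1 RPKM in both genotypes, while telencephalic markers lie between 7.59 and 773.

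Of the 9 other peptide genes of hypothalamic neurons and the 4 relatives of the set, 4 were tested in the edgeR fit. None of the tested genes passed the threshold (0 of 4, with 0 at an unadjusted p under 0.05). Pomc, the precursor of melanocortins and endorphin, held 66.9, 64.3, 43.2 and 44.7 normalized counts in controls and 77.6, 55.9 and 43.6 in mutants, a difference that followed the run more than the genotype (log2 fold change 0.11 ± 0.27, adjusted p = 0.89). Spx, the spexin gene related to galanin, ranged from 37.4 to 60.0 in controls and from 44.1 to 58.0 in mutants (log2 fold change 0.11 ± 0.23, adjusted p = 0.867), and Galp was at 0 throughout. Agrp stayed between 6.03 and 11.5 in all libraries. Kiss1, Ghrh, Gnrh1 and Npvf stayed under 10 counts in every library, and Qrfp, also untested, lay between 3.84 and 11.5 normalized counts. Nmu and Nms went the other way, with no count in any control library and some in every mutant library. Both were too low for the filter, passed the threshold only when no filter was applied, and are described under the other observations.

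The receptors and the enzymes that clear the peptides were chosen by function, and tests are given for them. Their list was drawn up with earlier results of these data known, so independence of these tests from those results is not established. Of 20 genes, 19 had a row and 16 were tested: 3 passed the threshold, Trhr2, Hcrtr2 and Galr1, all higher in mutants, against the 2.97% of all tested genes given above, and 0 were lower. Of the 16, 11 had a positive and 5 a negative log2 fold change, with a median of 0.24 beside -0.01 over all tested genes, and 7 did not overlap between genotypes, beside 19.7% of all tested genes.

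Trhr2, the second receptor of thyrotropin-releasing hormone, rose 3.56-fold. It held 31.8, 42.2, 35.5 and 64.0 normalized counts in controls and 112, 214 and 136 in mutants. Control 11 was the highest control, and the lowest mutant lay well above it. The log2 fold change was 1.83 ± 0.30 (SE, adjusted p = 0.0122), and without mutant library 12 it was 1.52 with an adjusted p of 0.0509. The first receptor, Trhr, took the opposite sign, with 62.5, 65.3, 133 and 67.1 in controls and 43.1, 41.4 and 35.98 in mutants. Its log2 fold change of -1.03 ± 0.31 (SE) did not pass the threshold (adjusted p = 0.107), although every mutant lay below every control. It passed in DESeq2 and in libraries 10 to 13 alone (log2 fold changes -1.03 and -1.36). Trhde, the ectoenzyme that degrades the peptide, ranged from 870 to 1414 in controls and from 895 to 1489 in mutants, with a log2 fold change of 0.07 ± 0.22 and an adjusted p of 0.914.

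Hcrtr2, the second orexin receptor, rose in all mutants while its ligand Hcrt stayed at 3 counts or fewer in every library. The controls held 84.4, 80.3, 94.0 and 80.3 normalized counts and the mutants 192, 239 and 314. The controls were tightly grouped and the mutants were spread, all of them far above the highest control. The log2 fold change was 1.55 ± 0.18 (SE, adjusted p = 0.00278), and the adjusted p was at most 0.0175 over 17 alternatives. Hcrtr1, the first orexin receptor, held 250, 162, 182 and 183 in controls and 330, 266 and 341 in mutants. It had a log2 fold change of 0.69 ± 0.17 (SE) and an adjusted p of 0.0597, just outside the threshold, and passed it in 6 of 17 alternatives, among them the fit without control library 2 (log2 fold change 0.83).

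Galr1, an inhibitory galanin receptor, was low and rose alongside its ligand. It held 11.0, 6.03, 12.5 and 10.2 normalized counts in controls and 26.8, 31.1 and 31.2 in mutants. The mutants were closely grouped, and the genotypes did not overlap. The log2 fold change was 1.57 ± 0.31 (SE, adjusted p = 0.0267). The call did not survive leaving out control library 10 or 11 or any mutant library, with log2 fold changes between 1.40 and 1.70 and an adjusted p of at most 0.14 over all alternatives. Galr2 ranged from 26.4 to 48.0 in controls and from 22.7 to 34.2 in mutants, with a log2 fold change of -0.31 ± 0.28 and an adjusted p of 0.654.

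Receptors of the other peptides gave smaller values. Ntsr1, a neurotensin receptor known in deep cortical layers, held 390 to 507 normalized counts in controls and 505 to 618 in mutants (log2 fold change 0.37 ± 0.13, adjusted p = 0.175). Sort1, the sorting receptor sortilin that also binds neurotensin, held 14889 to 18144 in controls and 13917 to 14311 in mutants. All mutants of Sort1 lay below all controls, at a log2 fold change of -0.27 ± 0.09 (adjusted p = 0.148), and Sort1 passed the threshold in 4 of 17 alternatives, among them the fit without control library 3 (log2 fold change -0.33). Oxtr, the oxytocin receptor, held 504, 400, 427 and 409 in controls and 376, 320 and 329 in mutants, again with no overlap (log2 fold change -0.35 ± 0.12, adjusted p = 0.178). Grpr, the receptor of gastrin-releasing peptide on interneurons, ranged from 12.1 to 37.4 in controls and from 26.5 to 47.6 in mutants, and its log2 fold change was 0.38 ± 0.39 (adjusted p = 0.699). Ntsr2, Mchr1, Avpr1a and the peptidases Nln and Lnpep did not pass the threshold either, with log2 fold changes between -0.03 and 0.49. Uts2r, Avpr1b and Avpr2 did not pass the filter on low counts.

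**Figure D3:**
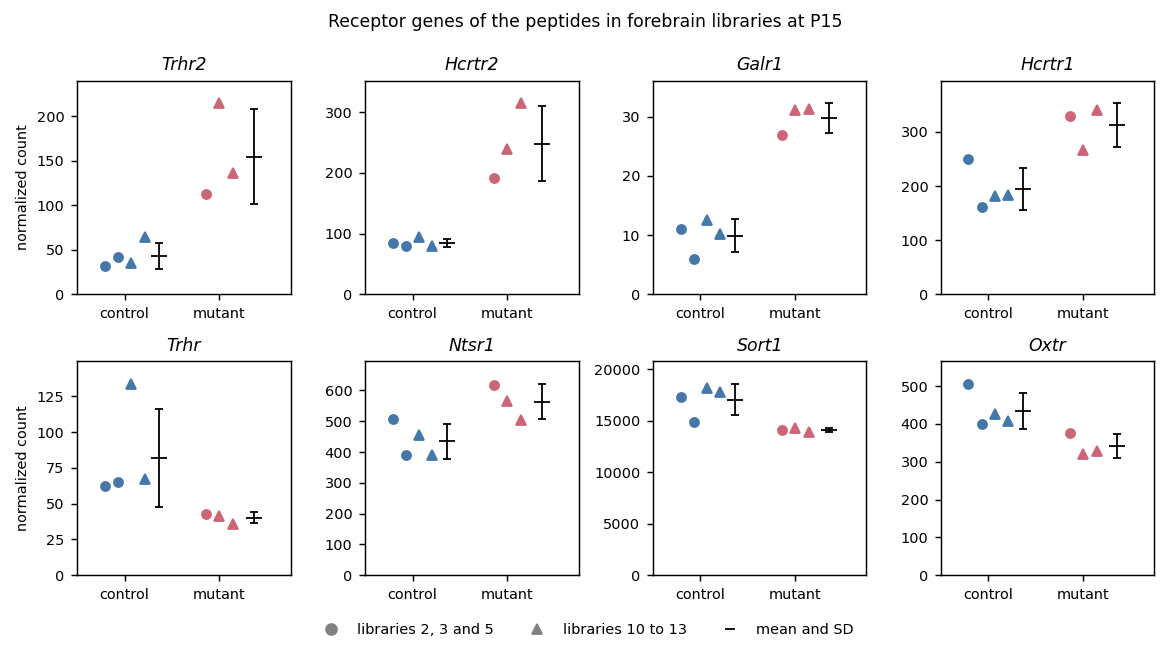
Normalized counts (y axis, each panel from 0) of 8 receptor genes in 4 control and 3 mutant libraries (x axis), drawn as in the plot of the neuropeptide genes. Trhr2, Hcrtr2 and Galr1 lie higher in every mutant library, and control library 10 stands apart at 133 for Trhr.

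**Figure D4:**
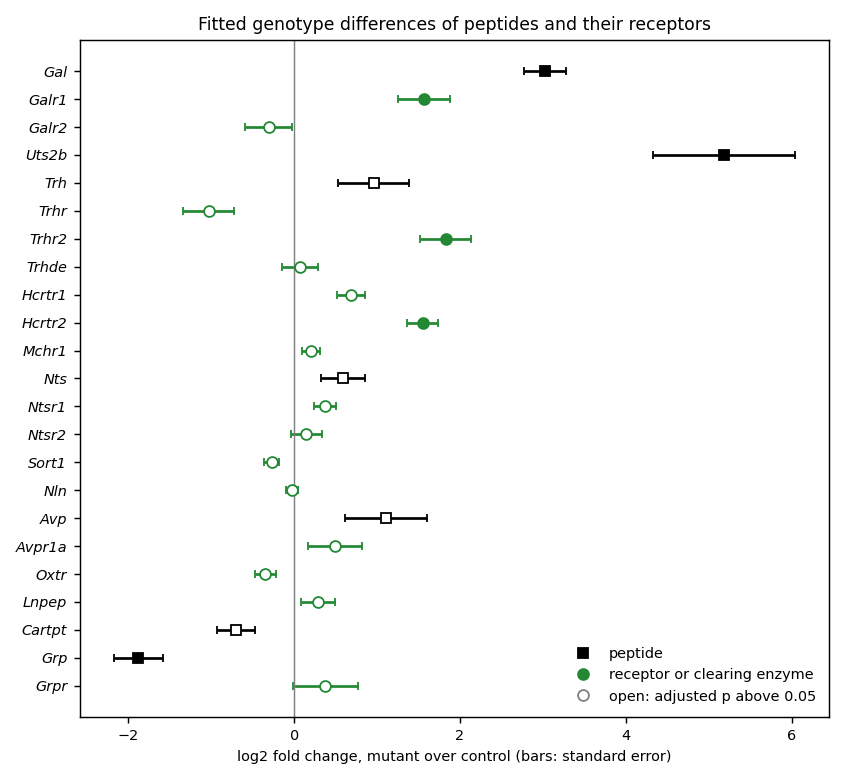
Fitted log2 fold change of mutants over controls (x axis) with its standard error for the 7 tested peptides (squares) and 16 tested receptors and clearing enzymes (circles), grouped by peptide system (y axis), filled where the adjusted p is at or under 0.05, which for the peptides is a description only. Filled symbols are Gal, Galr1, Uts2b, Trhr2, Hcrtr2 and Grp, and Grp alone of them lies below 0.

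Within peptide systems, ligand and receptor genes took various signs. Galanin had higher values for both Gal and Galr1, while Galr2 was slightly negative. Thyrotropin-releasing hormone had positive fitted values for Trh and Trhr2 and a negative one for Trhr. Gastrin-releasing peptide had a lower ligand beside a receptor that did not pass the threshold, and orexin had a higher second receptor beside a ligand too low for the filter. Whether the difference in one gene of a system depends on that in another was not tested.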

How the data were processed

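RNA-seq libraries of 4 control and 3 mutant forebrain pools were compared. Single-end reads of 36 bp were trimmed by the authors (CutAdapt 1.9.1) and aligned to the Ensembl GRCm38.84 transcriptome (Bowtie2 2.2.9), and the authors deposited RSEM 1.2.31 expected counts per gene with no normalization (versions from the submitters' processing notes). Whether counting used strand is not given in the sources used here. The authors also deposited an exon annotation, used for positions and lengths, and their DESeq2 comparison of the genotypes, of which only the gene symbols were used. RSEM divides reads that match several genes, so genes that share sequence are less certain.

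Expected counts were rounded to whole numbers. After a filter that kept genes reaching 10 counts in 3 or more libraries, TMM factors were computed and genes were tested between genotypes with edgeR's quasi-likelihood F-test (edgeR 4.0.16, R 4.3.3), with Benjamini-Hochberg adjustment over all tested genes and a threshold of 0.05. Standard errors were derived as the size of the log2 fold change divided by the root of F. RPKM used the union of exons. The count columns name only genotype and library number, so sex and RNA quality of a pool could not be tied to a library, and 0 per-sample columns were left out. No 2 libraries of a genotype agreed within sampling noise. The alternatives were DESeq2 1.42.0, limma-voom 3.58.1, RLE normalization, other filters, a run covariate and leaving out each library. The tests were checked on simulated data; recovery of changed genes was required only of well-covered genes, a condition set after a first run had recovered fewer genes overall than first required. The genes and lists were chosen with earlier results of these data known; all 10 peptides, Lhx6 and any gene of the lists could be named, and for each tested peptide the 3 genes most like it.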

Additional observations from a re-analysis of the deposited data

Results flagged for a closer look

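Trhr, the first receptor of thyrotropin-releasing hormone, stood at 133 normalized counts in control library 10, while the nearest of the other controls held 67.1, a gap of 0.936 of the whole control range. Chance alone marks about 1 in 20 groups of 4 in this way, and 21 control groups were looked at. Of the 12 hypothalamic markers, 5 were also at their highest among controls in this library, namely Gpr101 (205), Irs4 (49.9), Ghsr (23.0), Sim1 (10.6) and Foxb1 (6.72). The whole list summed to 304 there and to 133, 153 and 203 in the other controls. Of the 8 midbrain and hindbrain markers 1 was highest there, En1 at 35.5. Of the 19 receptors and clearing enzymes 7 were highest there, Trhr among them, and of the 9 other hypothalamic peptides 1, Agrp. Those 9 peptides summed to 72.9 there, and to 87.7, 88.4 and 74.2 in controls 2, 3 and 11. With 4 controls, some genes of any list are highest in a given library by chance, and these counts were not tested against that. The part of these levels in the Trhr value was not tested. Without control library 10 the log2 fold change of Trhr was -0.69, and its adjusted p 0.146.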

How the results depend on the processing

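No paired analysis was possible because the columns of the count table carry no replicate number. Over all genes, 954 passed the threshold in edgeR, 1731 in DESeq2, 2205 with a covariate for the low or high run of libraries and 1867 in libraries 10 to 13 only, a setting chosen after seeing the data with a filter of 10 counts in 2 libraries. With 1 library left out the count ran from 302 to 971. Of the 10 peptide genes, 3 passed in the main fit, 5 with the run as a covariate, where Cartpt and Trh joined them, and 1 with a filter on all 7 libraries, where 4 genes were tested. Leaving out 1 library gave 0 to 3: without a mutant library Gal, Uts2b and Avp reached 10 counts in too few libraries to be tested. With a filter on 2 libraries, added after seeing the data, Gal passed without any 1 mutant library, and without mutant library 13 Uts2b (log2 fold change 4.69) and Grp (-1.82) did not. For these genes, chosen on the same libraries, passing or not is a description. Receptors and clearing enzymes gave 3 in the main fit, 6 in DESeq2, 5 with the run covariate, 6 in libraries 10 to 13 only and 1 to 4 with 1 library left out, the lowest without mutant library 12. Other hypothalamic peptides gave 0 in the main fit and 2 with no filter. Among the tested peptides, relatives, receptors, clearing enzymes and hypothalamic markers, no direction of a gene past the threshold reversed under any alternative. For genes outside these lists, directions were not compared. The cause of these shifts was not tested, apart from the filters named.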

Other observations

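Nmu and Nms, which encode the related peptides neuromedin U and neuromedin S, had no count in any control library. Nmu held 12.5, 5.18 and 10.4 normalized counts in mutant libraries 5, 12 and 13 and Nms 9.58, 7.25 and 3.79, with 29 and 21 unscaled counts in all. Against a floor of 3 counts per control library, Nmu was at least 3.06-fold higher and Nms at least 2.25-fold higher. Both were too low for the filter on low counts and passed the threshold of edgeR's quasi-likelihood test only when no filter was applied, of the alternatives run, with adjusted p of 0.0251 and 0.0484. They share with Uts2b the form of the difference, a gene at or near 0 in controls and present in every mutant library.

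For each tested peptide the genes whose deviations from the genotype means were most like it over the 7 libraries were listed, as a description with no test. Grp was closest to Cmtm6 (Pearson's r = 0.998), N6amt1 (0.996) and Chodl (0.995), with 1220 of 19683 genes above 0.9, and Cartpt to Pkn3 (0.991), Mrps26 and Faap24. Gal was closest to Lor (0.998), Uts2b to Gm8226 (1.00), Nts to 9330179D12Rik (0.988), Trh to Gm29593 (0.986) and Avp to Kpna6 (0.992). The points share libraries and the low and high runs of library numbers, and with 7 libraries such values arise for many genes. Within the set, the deviations of Grp and Cartpt had r = 0.859 and those of Grp and Trh r = 0.788.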
